A study of Mus musculus with 24 samples.

Results

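Brains of mice carrying both the aSYN and the Hsp70 genotype were compared with wild-type brains. The members were chosen by their array titles: 6 arrays titled aSYN/70 and 6 titled wt, 12 of the 24 arrays of the series, on which 27022 probe sets were tested. RNA of the whole brain was taken at 4 months of age and each sample was hybridised to 1 Affymetrix mouse array. The other 12 arrays are 6 of the aSYN genotype alone and 6 of Hsp70 alone, and they enter here only where the brains with both genotypes are set against those with one. The name aSYN is not expanded in the labels and is taken to mean alpha-synuclein, and they give no transgene construct, promoter, species of the transgene, strain or sex. They also do not state whether each sample came from its own animal. P-values thus cover only the spread among the samples at hand, which may be technical in part. By the sex-linked genes given below each group held female and male samples, so not all samples of a group came from the same animal.

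Alpha-synuclein is a presynaptic protein that accumulates in the Lewy bodies of Parkinson's disease. HSP70 proteins are chaperones that bind misfolded proteins and, with their co-chaperones, refold them or pass them on for degradation. Dopamine neurons of the midbrain project to the striatum, whose projection neurons carry dopamine receptors and signal through cyclic AMP. In a whole-brain extract, fewer cells of a type and less RNA per cell cannot be told apart.

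Of the 12 arrays, 2 stood apart: aSYN/Hsp70 replicates 4 and 3, to which limma gave weights of 0.124 and 0.394. The deposited array medians of the series ran between 458 and 893 intensity units, and the highest was that of aSYN/Hsp70 replicate 4. The log2 median intensity before quantile normalisation was 9.23 ± 0.31 in aSYN/Hsp70 and 8.95 ± 0.05 in wt arrays (SD, n = 6 each, two-sided exact permutation p = 0.00866, 0.052 after Benjamini-Hochberg adjustment over 6 array measures). The deposited values already had a common scale: their mean without the 2% at each end was 2500 on every array. A higher median is thus not a brighter array as a whole. The mean difference between 3' and 5' probe sets of control transcripts, a measure of RNA integrity, was 0.85 ± 0.09 log2 units in aSYN/Hsp70 and 0.85 ± 0.13 in wt (SD, n = 6 each, exact permutation p = 0.937). By Xist and Y-linked genes there were 2 female and 4 male samples in aSYN/Hsp70, and 4 female and 2 male ones in wt. With sex as a covariate, 0 probe sets passed the adjusted threshold and the medians given below were -0.201 for striatal genes and -0.218 for myelin genes. Brain markers were bright throughout, with the myelin gene Mbp at 17.00 ± 0.10 log2 units in aSYN/Hsp70 and 17.06 ± 0.12 in wt. Of 8 skeletal muscle genes, all with a named probe set, 2 were bright enough to be tested. Of 9 red blood cell genes 5 had a named probe set, and 2 of these were bright enough.

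Values are log2 of the deposited intensity plus 16, quantile normalised, and differences are aSYN/Hsp70 minus wt. No probe set passed limma's adjusted p of 0.05 in the fit of all 24 arrays (0 of 27022, or 0%), where the smallest adjusted p was 0.154. At an unadjusted p under 0.05 stood 3922 probe sets (14.5%), 1642 of them higher (6.08%) and 2280 lower (8.44%) in aSYN/Hsp70. Their median size was 0.46 log2 units, and 458 exceeded 1. The 6 aSYN/Hsp70 arrays lay entirely above the 6 wt arrays in 103 probe sets (0.381%) and entirely below them in 137 (0.507%). The count at an unadjusted p under 0.05 was 2360 without aSYN/Hsp70 replicate 4 and 2297 without the 4 arrays of the series that stood apart. The plot of all probe sets places the genes named next.

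**Figure D1:**
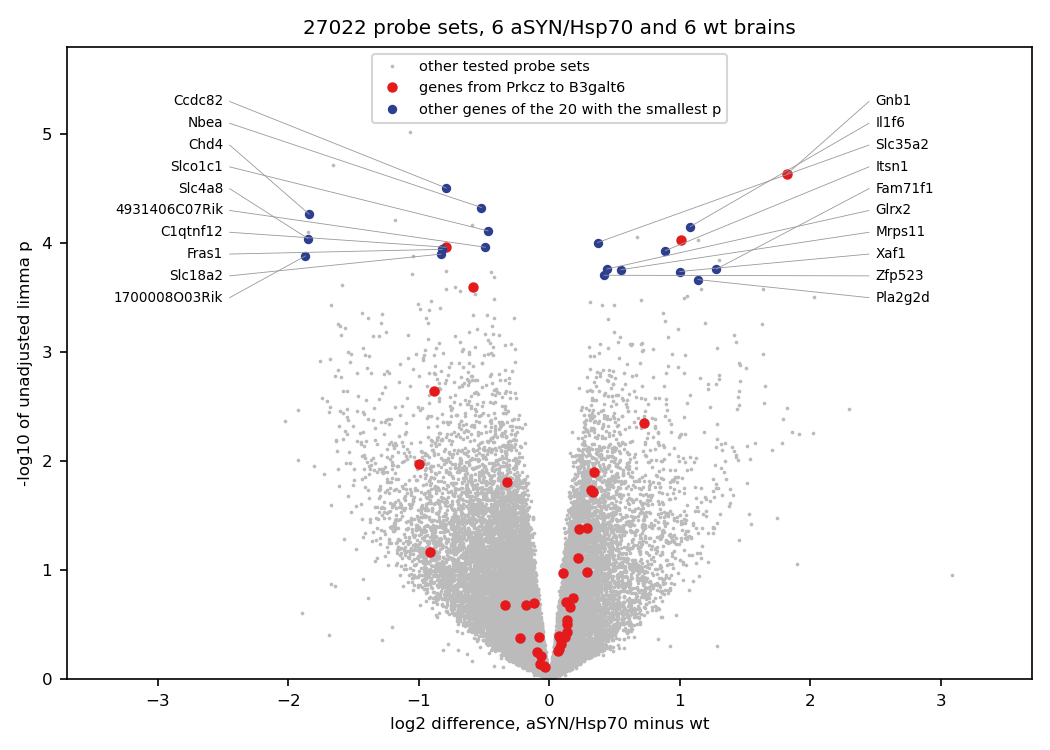
Log2 difference between aSYN/Hsp70 and wt arrays (x axis) against the unadjusted limma p on a -log10 scale (y axis) for 27022 probe sets. The 20 genes with the smallest p in either direction are named, with Gnb1 at 1.82 and Chd4 at -1.84 among the widest, and red points mark the genes from Prkcz to B3galt6 on chromosome 4.

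The 10 genes with the smallest p among those higher in aSYN/Hsp70 were led by Gnb1, which encodes a beta subunit of heterotrimeric G proteins, the relays between surface receptors and enzymes such as adenylyl cyclase. Its brighter probe set read 14.78, 14.85, 15.01, 14.59, 14.76 and 14.46 in the 6 aSYN/Hsp70 arrays, against 12.54, 13.10, 12.36, 13.22, 13.07 and 13.22 in the 6 wt arrays. The groups were far apart, and mean deposited intensities were 27800 in aSYN/Hsp70 and 8040 in wt. The difference of 1.82 log2 units (SE 0.34) had a limma adjusted p of 0.154. The second Gnb1 probe set gave 13.18 to 13.74 (median 13.61) in aSYN/Hsp70 and 12.20 to 12.68 (median 12.64) in wt, again without overlap, and differed by 1.01 (SE 0.21, limma adjusted p = 0.154).

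Several others of these 10 genes had a smaller difference and arrays that did not overlap, in some by a narrow gap. Zfp523 read at least 12.34 in aSYN/Hsp70 arrays and at most 12.33 in wt arrays. The 10 were chosen by their p on these same arrays, so the lack of overlap is a description. Slc35a2, the UDP-galactose transporter of the Golgi, averaged 11.67 ± 0.16 in aSYN/Hsp70 and 11.30 ± 0.10 in wt (SD, n = 6 each), a difference of 0.37 (SE 0.08). Mrps11, a mitochondrial ribosomal protein, stood at 12.87 ± 0.23 against 12.33 ± 0.07, differing by 0.55 (SE 0.12), and the zinc finger gene Zfp523 at 12.52 ± 0.13 against 12.10 ± 0.17, differing by 0.42 (SE 0.09). For these 3 genes, as for Glrx2 (mitochondrial glutaredoxin, 0.44), Xaf1 (an interferon-inducible gene, 1.00) and the endocytic scaffold Itsn1 (0.89), the 6 and 6 arrays did not overlap. Il1f6, an interleukin-1 family cytokine, differed by 1.08, Fam71f1 by 1.28 and the secreted phospholipase Pla2g2d by 1.14, all with overlapping arrays. Mean deposited intensities in wt were 208 for Il1f6, 191 for Pla2g2d and 197 for Xaf1, below the lowest array median of 458. Limma adjusted p-values of the 10 genes lay between 0.154 and 0.172.

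Among the 10 genes with the smallest p in the lower direction was Nbea, which encodes neurobeachin, a scaffold of membrane traffic to synapses. It read 13.99 to 14.35 in aSYN/Hsp70 arrays, mean 14.19 ± 0.14, against 14.52 to 14.93 in wt arrays, mean 14.70 ± 0.16 (SD, n = 6 each). All aSYN/Hsp70 arrays lay below all wt arrays, and the difference was -0.52 (SE 0.10, limma adjusted p = 0.154). Slco1c1, the thyroxine transporter of brain capillaries, averaged 13.03 ± 0.22 against 13.50 ± 0.16 and differed by -0.47 (SE 0.10), with 1 aSYN/Hsp70 array, replicate 6 at 13.32, above the lowest wt array at 13.27.

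Further genes of this group were Slc18a2, Slc4a8 and Chd4. Slc18a2, the vesicular monoamine transporter that loads dopamine into vesicles, read 8.85 to 9.93 in aSYN/Hsp70 and 9.82 to 10.61 in wt, and differed by -0.83 (SE 0.18). Slc4a8, a sodium-driven bicarbonate exchanger of neurons, averaged 6.76 ± 0.73 against 8.60 ± 0.61 and differed by -1.85 (SE 0.39). The chromatin remodeller Chd4 averaged 7.81 ± 0.77 against 9.65 ± 0.43 on its lowest-p probe set, a difference of -1.84 (SE 0.37), and 1700008O03Rik stood at -1.87 (SE 0.40). The remaining ones were Ccdc82 (-0.79), 4931406C07Rik (-0.49), C1qtnf12 (-0.79) and the extracellular matrix gene Fras1 (-0.82). Each of the 10 had a limma adjusted p of 0.154, and 4931406C07Rik and C1qtnf12, like Nbea, had no overlapping arrays.

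How far a gene's other probe sets moved with it was checked for all 20. For 9 genes only 1 probe set was tested, and for 3 of the other 11 the probe set named was itself the brightest. In 8 genes a brighter probe set existed, and it had the same sign in 6 and an unadjusted p under 0.05 in 1, Slc4a8 (-0.38, SE 0.13). The brightest probe set differed by -0.04 (SE 0.10) for Chd4, -0.02 (SE 0.09) for Itsn1, 0.07 (SE 0.07) for Glrx2, 0.18 (SE 0.17) for Xaf1 and -0.17 (SE 0.13) for Ccdc82. For 1700008O03Rik it had the other sign, at 0.09 (SE 0.55). The differences named for these genes are thus those of 1 dimmer probe set each. Slc35a2 was named by its brightest probe set, and 2 of its 5 tested probe sets had that sign. On the probe sets named, 8 of the 20 genes were dim, averaging below 10 log2 units in both groups. They were Il1f6, Itsn1, Xaf1, Pla2g2d, Ccdc82, Chd4, Slc4a8 and 1700008O03Rik.

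Set against the brains with one genotype, 2 of these 20 genes were called. The 20 were chosen by their difference from wt on the same aSYN/Hsp70 arrays, so this count is a description. In aSYN/Hsp70 against aSYN, limma called 194 of 27022 probe sets (0.718%), and of the 20 genes Slc4a8 (-1.91, SE 0.39, adjusted p = 0.0244) and Slc18a2 (-0.85, SE 0.18, adjusted p = 0.0281) were among them, both lower in aSYN/Hsp70. The Slc4a8 probe set averaged 6.76 log2 units in aSYN/Hsp70, 8.66 in aSYN, 8.64 in Hsp70 and 8.60 in wt. It lay near the filter on dim probe sets, which it did not pass in 2 of 26 alternatives, and as the filter uses the mean of all arrays it passed through the groups where it is high, so its call is a description. In aSYN/Hsp70 against Hsp70, 0 probe sets (0%) were called. The aSYN and Hsp70 brains are set against the same wt arrays, so the following differences are not independent of those above. Nbea differed from wt by -0.52 in aSYN/Hsp70, by -0.47 in aSYN and by -0.14 in Hsp70. Slc18a2 differed by -0.83 in aSYN/Hsp70, by 0.01 in aSYN and by -0.41 in Hsp70, and Glrx2 by 0.44, 0.38 and 0.31 in the same order.

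Genes beside Gnb1 made up a further pattern, found after the values were seen. A fit of only the 12 aSYN/Hsp70 and wt arrays, in which the spread of aSYN and Hsp70 arrays has no part, called 4 probe sets. They were the 2 of Gnb1 (SE 0.17 and limma adjusted p = 0.00319 for the brighter, SE 0.12 and limma adjusted p = 0.0203 for the other), 1 of C1qtnf12, a secreted C1q-like protein (-0.79, SE 0.08, adjusted p = 0.00319), and 1 of Prkcz, the atypical protein kinase C zeta (-0.58, SE 0.07, adjusted p = 0.0292). Over 26 alternative settings the adjusted p reached 0.865 for each of the 4. In assembly GRCm38.p6 all 3 genes lie among the 30 neighbouring protein-coding genes that run from Prkcz to B3galt6 on mouse chromosome 4. Of these 30 genes, 22 were tested with 39 probe sets, and 13 probe sets (33.3%) of 11 genes had an unadjusted p under 0.05 in the fit of all arrays, 8 higher and 5 lower, against 14.5% of all probe sets. As the stretch was delimited by its own values, this share is a description.

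On the called probe set of Prkcz, aSYN/Hsp70 arrays read 12.46 to 12.71 (median 12.59) and wt arrays 13.10 to 13.28 (median 13.18). C1qtnf12 read 10.91 to 11.15 (median 11.06) in aSYN/Hsp70 and 11.67 to 11.90 (median 11.88) in wt. In both genes the 2 groups were narrow and wide apart. Other probe sets of these genes were mixed: 2 more of Prkcz stood at 0.13 (SE 0.09) and -0.07 (SE 0.21). The other 3 of C1qtnf12 stood at -0.06 (SE 0.13, the brightest), at 0.14 (SE 0.15) and, on a dim one with overlapping arrays, at -0.91 (SE 0.47). B3galt6, a galactosyltransferase of proteoglycan synthesis at the end of the stretch, read at most 9.05 (median 8.57) in aSYN/Hsp70 and at least 9.23 (median 9.48) in wt on 1 probe set, without overlap. Its other probe sets differed by -0.88 (SE 0.26) and -0.09 (SE 0.15).

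The aSYN and Hsp70 arrays did not form narrow groups on these probe sets. On the brighter Gnb1 probe set, aSYN replicates 1, 4 and 6 read 14.16, 14.64 and 14.82, in or near the range of aSYN/Hsp70, while aSYN replicates 2, 3 and 5 read 13.32, 13.42 and 12.74. Hsp70 replicates 5 and 6 read 14.75 and 13.94, and the other 4 Hsp70 arrays 12.63 to 13.17. On the second Gnb1 probe set the same 3 aSYN arrays (13.31, 13.60 and 13.51) and the same 2 Hsp70 arrays (13.67 and 13.58) were the high ones. Counted on the aSYN/Hsp70 side of the midpoint between the aSYN/Hsp70 and wt means were 6 aSYN/Hsp70, 3 aSYN, 2 Hsp70 and 0 wt arrays for Gnb1 and for Prkcz. The counts were 6, 3, 3 and 0 for C1qtnf12, and 5, 3, 1 and 0 for the B3galt6 probe set without overlap. These probe sets were picked for their difference between aSYN/Hsp70 and wt arrays, which also set the midpoint. The counts of these groups were thus largely fixed in advance, and only those of aSYN and Hsp70 arrays were free. The aSYN arrays divided alike on all 5 of these probe sets, with replicates 1, 4 and 6 on the aSYN/Hsp70 side and replicates 2, 3 and 5 on the wt side. The Hsp70 arrays did not: replicate 5 was on the aSYN/Hsp70 side on 5 of them, replicate 6 on 3, and replicates 2 and 3 on 1 each (Prkcz for replicate 2, C1qtnf12 for replicate 3). What the arrays on 1 side share was not tested.

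**Figure D2:**
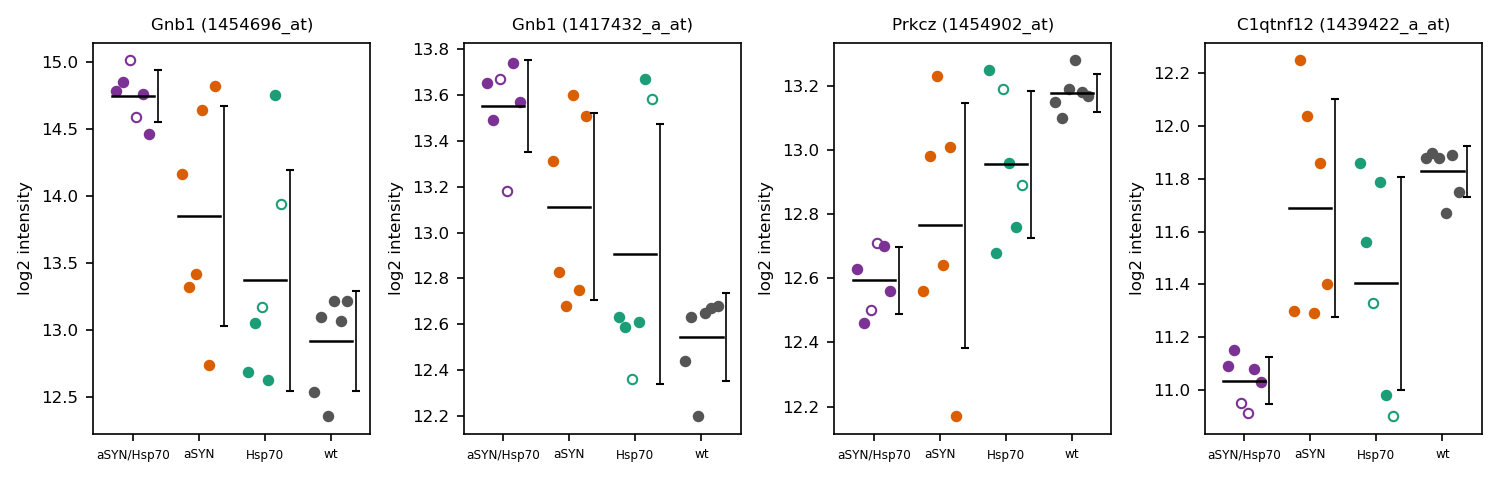
Log2 intensity (y axes, not starting at 0) of 2 Gnb1 probe sets, 1 of Prkcz and 1 of C1qtnf12 in all 24 arrays by group. Lines are means and bars SDs of 6 arrays, open symbols the 4 arrays that stand apart; aSYN/Hsp70 and wt arrays are apart on all 4 probe sets while aSYN and Hsp70 arrays spread between them.

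Gene lists were described by the brightest probe set of each gene, over 12929 genes, of which 51.3% were lower and 48.7% higher in aSYN/Hsp70, with a median difference of -0.01. At an unadjusted p under 0.05 were 7.03% of genes on the higher side and 7.54% on the lower. The arrays did not overlap in 0.379% of genes on the higher side and 0.464% on the lower. No member of the 49 lists passed limma's adjusted p of 0.05, and 782 different genes of them were tested. Of 36 lists with 10 or more tested members, 7 had at least 75% of members lower and 2 at least 75% higher. In the fit without the 4 arrays that stand apart, 48.5% of 12925 genes were lower. The share lower at an unadjusted p under 0.05 was 4.22% in that fit. The plot of list medians shows thalamus, cerebellar, myelin and striatal genes at the low end and interneuron genes at the high end.

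**Figure D3:**
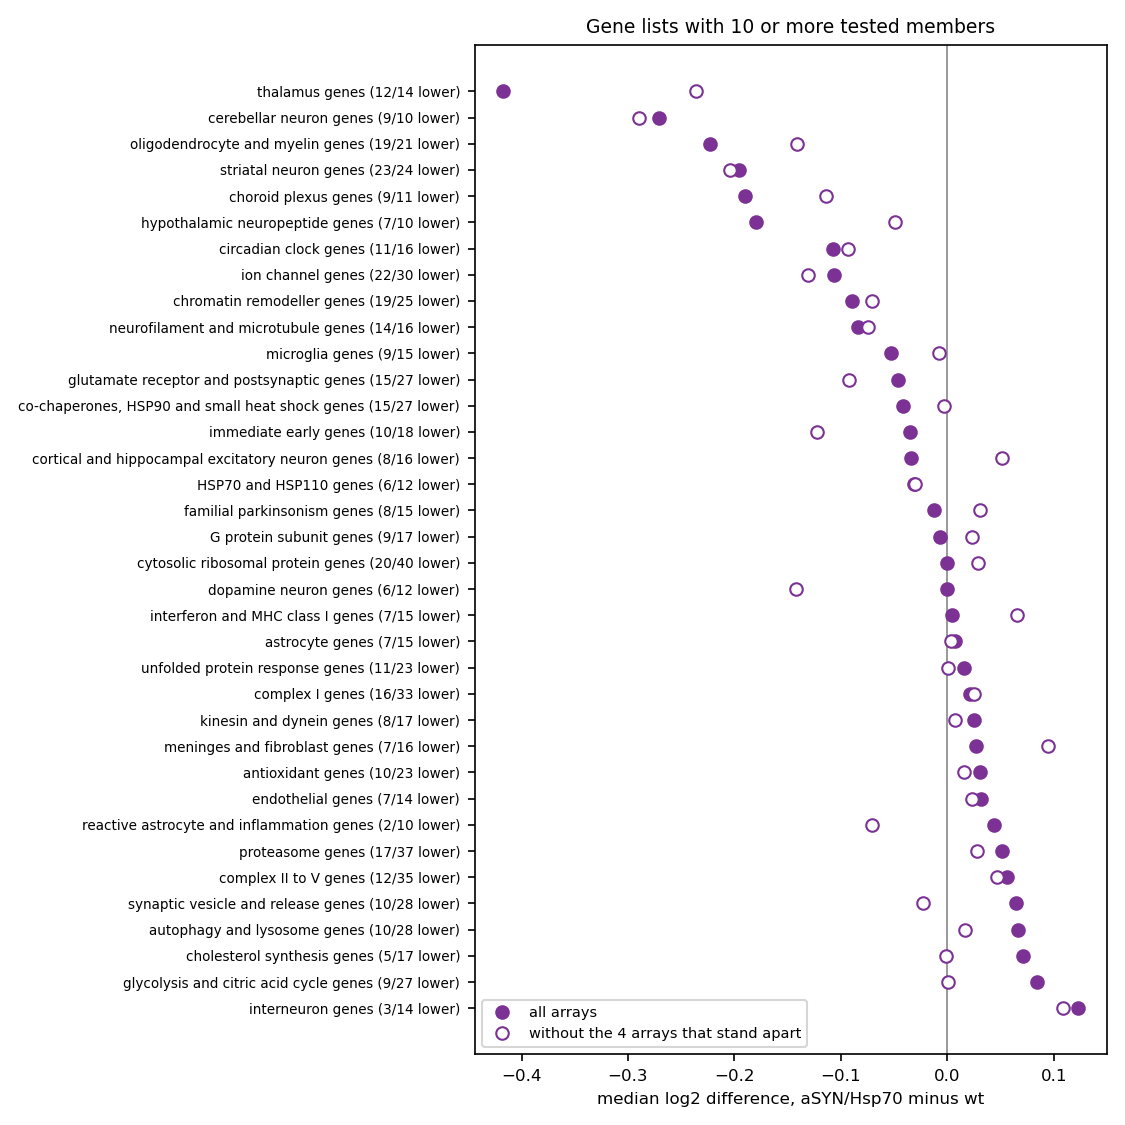
Median log2 difference, aSYN/Hsp70 minus wt, of 36 gene lists with 10 or more tested members (x axis), with all arrays (filled) and without the 4 arrays that stand apart (open). Numbers beside each name are members lower of members tested; the striatal median is -0.20 with all arrays and stays near it without the 4, while the thalamus median is -0.42 with all arrays and -0.236 without the 4.

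Genes of striatal projection neurons were lower in aSYN/Hsp70 for 23 of 24 tested members, with a median of -0.20 log2 units, 9 members at an unadjusted p under 0.05 and none on the higher side. Adcy5, the main adenylyl cyclase of the striatum, read 13.59 to 13.83 (median 13.73) in aSYN/Hsp70 and 13.87 to 14.13 (median 14.02) in wt. Every aSYN/Hsp70 array lay below every wt array, and the difference was -0.27 (SE 0.07, limma adjusted p = 0.202). Tac1, the substance P precursor of direct-pathway neurons, read 13.35 to 14.08 (median 13.86) against 13.92 to 14.60 (median 14.21) and differed by -0.45 (SE 0.12, limma adjusted p = 0.21). Replicate 6 of aSYN/Hsp70, at 14.08, reached into the wt range.

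The dopamine receptors had the same sign. Drd2, of indirect-pathway neurons, read 11.25 to 11.84 (median 11.54) in aSYN/Hsp70 and 11.59 to 12.38 (median 11.91) in wt, a difference of -0.36 (SE 0.12). Drd1, of direct-pathway neurons, read 12.08 to 12.66 (median 12.33) against 12.53 to 12.81 (median 12.64), a difference of -0.30 (SE 0.10). Both overlapped, and limma adjusted p-values were 0.265 for Drd2 and 0.274 for Drd1. The transcription factors Foxp2 and Foxp1 differed by -0.46 (SE 0.13) and -0.30 (SE 0.14), the cyclic AMP-regulated phosphoprotein Arpp21 by -0.31 (SE 0.12), the G protein regulator Rgs9 by -0.21 (SE 0.09) and the orphan receptor Gpr6 by -0.50 (SE 0.24). Other hallmarks of these neurons differed less surely, Penk by -0.13 (SE 0.11) and Ppp1r1b, which encodes DARPP-32, by -0.16 (SE 0.13).

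The striatal score, the mean of the 24 genes relative to wt, was -0.29, -0.14, -0.19, -0.37, -0.25 and -0.12 in the aSYN/Hsp70 arrays, against 0.15, -0.10, -0.02, -0.05, 0.06 and -0.04 in the wt arrays. All 6 aSYN/Hsp70 arrays lay below the lowest wt array. Most Hsp70 arrays did too, with scores of -0.15, -0.15, -0.21, -0.30, -0.19 and -0.04. Without the 4 arrays that stand apart, 23 of 24 members were lower, 10 at an unadjusted p under 0.05, with a median of -0.204, and Foxp2 stood at -0.30. Relative to wt the list median was -0.05 in aSYN and -0.13 in Hsp70 brains, on the same wt arrays. Against Hsp70 brains, Drd1 in aSYN/Hsp70 differed by 0.04 and Tac1 by 0.02, while against aSYN brains they differed by -0.28 (limma adjusted p = 0.152) and -0.47 (limma adjusted p = 0.0577).

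Promoters of 3 striatal genes and of Gnb1 are given because these genes carry the differences above and because cyclic AMP, made by Adcy5, acts on genes through the CREB factor. They are the 250 bases before the annotated start, from RefSeq on build GRCm38.p6, 5′ to 3′, with capitals marking TGACG or its reverse complement CGTCA, the short form of the motif that CREB binds.
Tac1, chr6:7554811-7555060, + strand: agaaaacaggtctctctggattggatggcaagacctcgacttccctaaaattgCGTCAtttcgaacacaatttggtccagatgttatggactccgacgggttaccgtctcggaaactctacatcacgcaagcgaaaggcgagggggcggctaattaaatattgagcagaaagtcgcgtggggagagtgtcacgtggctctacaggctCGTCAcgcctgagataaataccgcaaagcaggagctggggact
Adcy5, chr16:35154614-35154863, + strand: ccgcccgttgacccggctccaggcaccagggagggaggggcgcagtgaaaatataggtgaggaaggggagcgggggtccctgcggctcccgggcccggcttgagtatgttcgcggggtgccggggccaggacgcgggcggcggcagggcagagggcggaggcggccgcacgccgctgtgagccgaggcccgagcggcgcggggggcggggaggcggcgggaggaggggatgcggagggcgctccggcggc
Drd2, chr9:49340153-49340402, + strand: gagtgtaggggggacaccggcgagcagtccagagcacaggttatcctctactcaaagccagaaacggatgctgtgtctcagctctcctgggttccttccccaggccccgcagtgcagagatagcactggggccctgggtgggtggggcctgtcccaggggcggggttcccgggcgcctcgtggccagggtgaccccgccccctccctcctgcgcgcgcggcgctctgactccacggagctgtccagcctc
Gnb1, chr4:155491111-155491360, + strand: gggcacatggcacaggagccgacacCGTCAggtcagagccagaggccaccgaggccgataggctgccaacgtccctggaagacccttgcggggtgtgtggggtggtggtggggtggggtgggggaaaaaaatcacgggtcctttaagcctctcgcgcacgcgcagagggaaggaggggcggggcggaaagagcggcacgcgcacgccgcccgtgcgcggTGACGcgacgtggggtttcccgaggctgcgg
The Tac1 promoter held 2 matches, that of Gnb1 2, and those of Adcy5 and Drd2 0. Among all 27025 promoters 17.9% held at least 1 match on either strand. Of the 24 tested striatal genes 20 had a promoter in the table, of which 3 (15.0%) held a match.

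Myelin and other oligodendrocyte genes were lower for 19 of 21 tested members (median -0.22), 9 of them at an unadjusted p under 0.05. Cnp, an enzyme of non-compact myelin, read 15.05 to 15.88 (median 15.62) in aSYN/Hsp70 and 15.85 to 16.07 (median 15.94) in wt. Only replicate 6 of aSYN/Hsp70, at 15.88, reached the wt range, and the difference was -0.37 (SE 0.12, limma adjusted p = 0.25). Mobp, a basic protein of compact myelin, read 15.64 to 16.02 (median 15.76) against 15.92 to 16.20 (median 16.05), a difference of -0.26 (SE 0.09). The myelin lipoprotein Mal differed by -0.33 (SE 0.11), the sphingolipid hydroxylase Fa2h by -0.41 (SE 0.14), the lineage factor Olig1 by -0.23 (SE 0.09) and Mog by -0.70 (SE 0.32), whereas Mbp differed by -0.07 (SE 0.07). The myelin score was -0.18, -0.21, -0.22, -0.70, -0.17 and 0.06 in the aSYN/Hsp70 arrays, and -0.15 to 0.16 in wt. Replicate 4 lay far below the rest, and 5 of 6 aSYN/Hsp70 arrays were below the lowest wt array. Without the 4 arrays that stand apart the median was -0.141, with 16 of 21 members lower and 4 at an unadjusted p under 0.05.

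Thalamus genes were lower for 12 of 14 tested members (median -0.42), 9 at an unadjusted p under 0.05. Prkcd, a protein kinase C of thalamic relay neurons, read 12.69 to 13.19 (median 12.92) in aSYN/Hsp70 and 13.10 to 13.63 (median 13.28) in wt, a difference of -0.43 (SE 0.11, limma adjusted p = 0.21). Rora, a nuclear receptor, read 12.83 to 13.20 (median 13.13) against 13.22 to 13.55 (median 13.33), did not overlap, and differed by -0.27 (SE 0.08, limma adjusted p = 0.228). Plekhg1 (-0.51, SE 0.16), the adhesion protein Ntng1 (-0.40, SE 0.13) and the vesicular glutamate transporter Slc17a6 (-0.40, SE 0.16) had the same sign. The score was lowest in aSYN/Hsp70 replicate 4 at -0.91, the other 5 aSYN/Hsp70 arrays lay between -0.38 and -0.09, and wt arrays lay between -0.22 and 0.29. Without the 4 arrays that stand apart the median was -0.236, 13 of 14 members were lower and 7 had an unadjusted p under 0.05, while Ntng1 stood at -0.222.

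**Figure D4:**
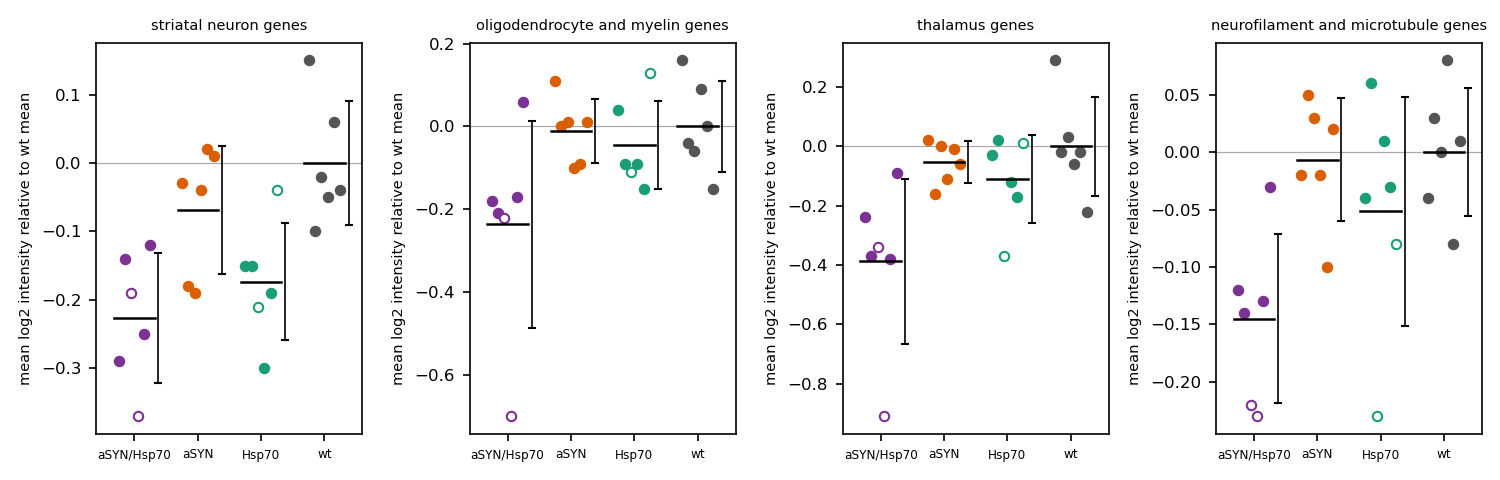
Mean log2 intensity of 4 gene lists relative to the wt mean (y axes) in all 24 arrays by group. Lines are means and bars SDs of 6 arrays, open symbols the 4 arrays that stand apart. All 6 aSYN/Hsp70 arrays lie below the lowest wt array in the striatal panel. Means there are -0.23 in aSYN/Hsp70, -0.17 in Hsp70 and -0.07 in aSYN. Replicate 4 of aSYN/Hsp70 lies lowest in the myelin (-0.70) and thalamus (-0.91) panels.

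**Figure D5:**
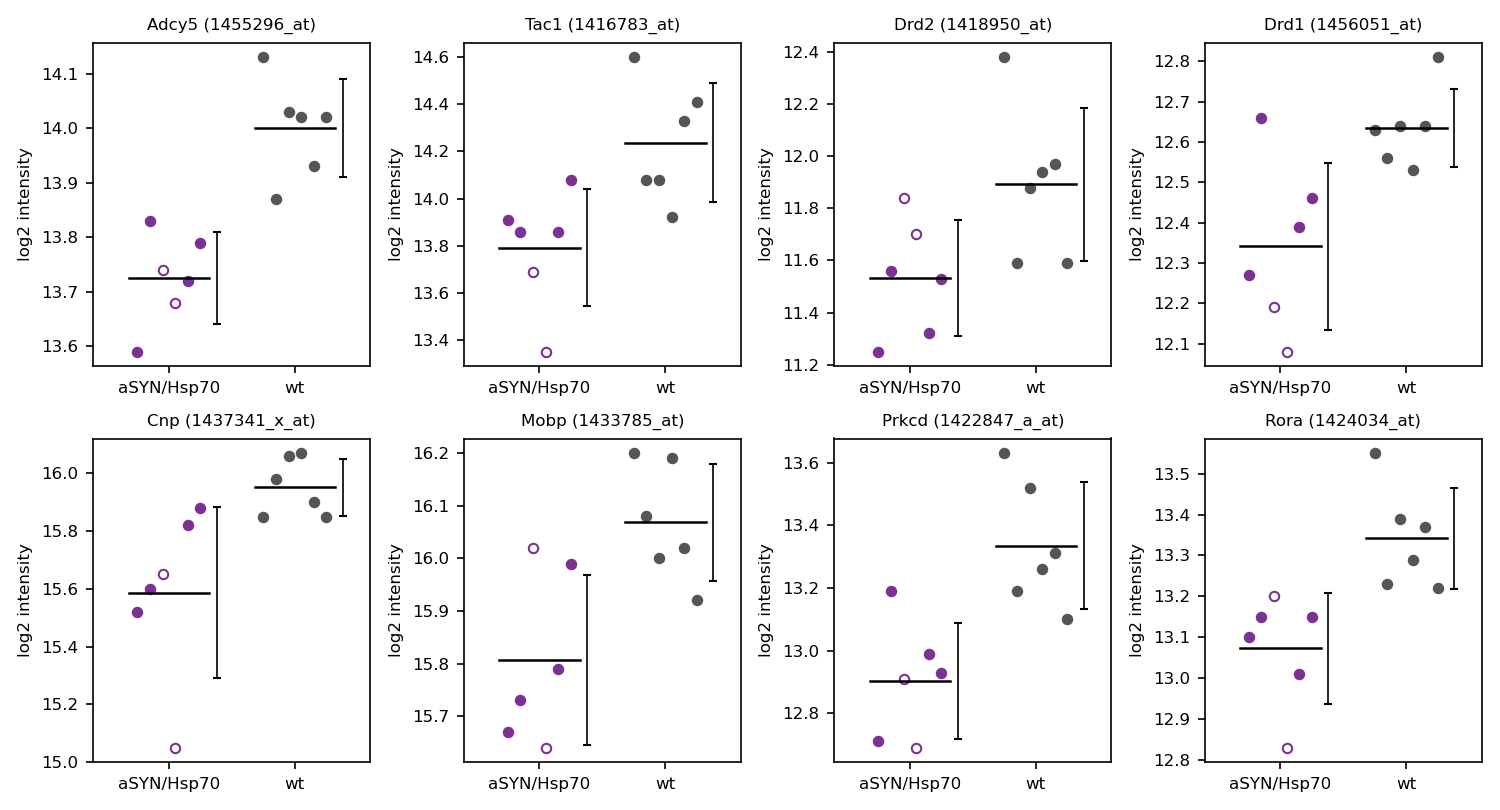
Log2 intensity (y axes, not starting at 0) of 8 striatal, myelin and thalamus genes in aSYN/Hsp70 and wt arrays. Lines are means and bars SDs of 6 arrays, open symbols the arrays that stand apart; the groups do not overlap for Adcy5 and Rora, whose differences are each -0.27.

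Neurofilament, microtubule and ion channel genes leaned the same way, but not all lists of neuronal genes did. Synaptic vesicle and release genes were higher for 18 of 28 (median 0.06, and -0.0231 without the 4 arrays that stand apart). Kinesin and dynein genes were higher for 9 of 17 (median 0.02). Glutamate receptor and postsynaptic genes were lower for 15 of 27 (median -0.05). Neurofilament and microtubule genes were lower for 14 of 16 (median -0.08), 5 at an unadjusted p under 0.05. Among neurofilament subunits, Nefm differed by -0.43 (SE 0.14), Ina by -0.37 (SE 0.12) and Nefh by -0.37 (SE 0.14), while Nefl differed by -0.05 (SE 0.07). Nefm read 14.27 to 15.00 (median 14.52) in aSYN/Hsp70 and 14.76 to 15.12 (median 15.05) in wt, with overlap. Ion channel genes were lower for 22 of 30 (median -0.11), 7 at an unadjusted p under 0.05. The fast potassium channel Kcnc1 led them (-0.36, SE 0.11). Kcnc1 was called against aSYN brains (-0.52, limma adjusted p = 0.0271), a comparison that shares the aSYN/Hsp70 arrays and is not independent. The sodium channel partners Fgf14 and Fgf12 differed by -0.60 (SE 0.22) and -0.44 (SE 0.17). Without the 4 arrays that stand apart the medians were -0.0743 for the neurofilament list and -0.131 for the channel list, while Fgf14 stood at -0.246 and Fgf12 at -0.237. Chromatin remodeller genes were lower for 19 of 25 (median -0.09), with 4 lower and 1 higher at an unadjusted p under 0.05.

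Chaperones were read because of the Hsp70 genotype. The Hspa1a probe set averaged 10.63 ± 1.37 in aSYN/Hsp70, where replicate 4 read 7.86, and 10.96 ± 0.37 in wt (SD, n = 6 each), a difference of -0.33 (two-sided exact permutation p = 0.857). The 3 probe sets of Hspa1b differed by -0.23, 0.27 and 0.29 (exact permutation p = 0.513, 0.532 and 0.429), and adjusted over the 4 probe sets the values lay between 0.709 and 0.857. The species of the transgene is not given in the labels, and mouse probe sets need not detect RNA of another species. HSP70 and HSP110 family genes were split, 6 higher and 6 lower of 12, with the 4 at an unadjusted p under 0.05 all lower: Hspa4 (-0.19, SE 0.08), Hspa14 (-0.23, SE 0.09), Hspa4l (-0.24, SE 0.11) and the mitochondrial Hspa9 (-0.16, SE 0.08). Without the 4 arrays that stand apart 0 of the 12 were lower at an unadjusted p under 0.05, and the values were -0.149 for Hspa4, -0.104 for Hspa14, -0.156 for Hspa4l and -0.0939 for Hspa9. Of co-chaperones, HSP90 and small heat shock genes 15 of 27 were lower. At an unadjusted p under 0.05 were 4 (14.8%, against 14.6% of all genes in both directions and 7.54% on the lower side). They were again lower, led by the mitochondrial chaperonin Hspd1 (-0.38, SE 0.12) and Hsp90aa1 (-0.33, SE 0.12). Hspd1 read 13.96 to 14.85 (median 14.56) in aSYN/Hsp70 and 14.75 to 15.06 (median 14.94) in wt. Its lowest array was replicate 4, and without the 4 arrays that stand apart Hspd1 differed by -0.218 and Hsp90aa1 by -0.165.

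Dopamine neuron genes did not share a sign, with 6 higher and 6 lower of 12 tested. The 3 at an unadjusted p under 0.05 were lower: Slc18a2, the growth factor receptor Ret (-0.92, SE 0.27) and the aldehyde dehydrogenase Aldh1a1 (-0.42, SE 0.15). Th, the rate-limiting enzyme of dopamine synthesis, stood at 0.34 (SE 0.19) and the dopamine transporter Slc6a3 at -0.19 (SE 0.20). Ret read 8.13 to 10.35 (median 9.59) in aSYN/Hsp70 and 9.70 to 11.06 (median 10.30) in wt, with overlap. Of the 15 genes of familial parkinsonism tested, 7 were higher and 8 lower. At an unadjusted p under 0.05 were 2 of them (13.3%, against 14.6% of all genes), each on the higher side. They were the neuronal ubiquitin hydrolase Uchl1 (0.17, SE 0.08) and the lysosomal ATPase Atp13a2 (0.24, SE 0.11). Uchl1 read 16.38 in aSYN/Hsp70 replicate 4 and 15.91 to 15.93 in the other aSYN/Hsp70 arrays. Uchl1 differed by 0.0867 and Atp13a2 by 0.122 without the 4 arrays that stand apart.

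Protein turnover and energy genes were mixed. Proteasome genes were higher for 20 of 37 (median 0.05), with 5 higher and 1 lower at an unadjusted p under 0.05. Together these were 16.2% of the list, against 14.6% of all genes. Psmb2, a catalytic-core subunit, read 13.56 to 14.08 (median 13.66) in aSYN/Hsp70 and 13.00 to 13.56 (median 13.41) in wt. Its groups touched without overlapping, and it differed by 0.37 (SE 0.13, limma adjusted p = 0.278). Autophagy and lysosome genes were higher for 18 of 28 (median 0.07), although Npc1, the cholesterol exporter of the lysosome, was lower without overlap at -0.34 (SE 0.12). Complex I genes were higher for 17 of 33, complex II to V genes for 23 of 35, glycolysis and citric acid cycle genes for 18 of 27 and cytosolic ribosomal protein genes for 20 of 40, with medians of 0.02, 0.06, 0.08 and 0.00. The glycolysis median was 0.00024 without the 4 arrays that stand apart, with 13 of 27 lower, the autophagy median 0.0166 and the proteasome median 0.028, and Npc1 stood at -0.195.

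Glial and vascular lists other than myelin were mixed. Astrocyte genes were higher for 8 of 15 (median 0.01), with Gfap of reactive astrocytes at 0.40 (SE 0.24). Microglia genes were lower for 9 of 15 (median -0.05), and Fcrls, a receptor of resident microglia, read 9.80 to 10.92 (median 10.37) in aSYN/Hsp70 and 11.06 to 11.64 (median 11.39) in wt. Fcrls did not overlap and differed by -0.95 (SE 0.23, limma adjusted p = 0.202). It differed from the same wt arrays by -0.92 in aSYN brains and by -0.12 in Hsp70 brains. Microglia members at an unadjusted p under 0.05 were 3 (20%), all lower, against 7.54% of all genes on the lower side. They were Fcrls, Gpr34 (-1.09) and Laptm5 (-0.443). Without the 4 arrays that stand apart Fcrls differed by -0.751, Gpr34 by -0.215 and Laptm5 by -0.405. Of the 15 members 6 were higher, among them Cx3cr1 (0.20, SE 0.12) and Csf1r (0.08, SE 0.08). Choroid plexus genes were lower for 9 of 11 (median -0.19), led by the chloride channel Clic6 (-0.38, SE 0.12). Their score was lowest in aSYN/Hsp70 replicates 4 and 3, at -0.61 and -0.51. Without the 4 arrays that stand apart the choroid plexus median was -0.114, with 7 of 11 lower, and Clic6 differed by -0.289. With only the female arrays the median was 0.00462. Endothelial genes were split, 7 and 7 of 14.

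Lists of other brain regions and neuron types differed among themselves. Cerebellar neuron genes were lower for 9 of 10 (median -0.27), but 0 had an unadjusted p under 0.05, and their SEs ran up to 1.32, for the Purkinje cell gene Pcp2. The cerebellar sign rested on 1 array: wt replicate 1 had a score of 1.96 against -0.72 to 0.02 in the other wt arrays, and without it the median was 0.044. With only the male arrays the median was 0.039. Interneuron genes were higher for 11 of 14 (median 0.12). Their 2 members at an unadjusted p under 0.05 (14.3%, against 14.6% of all genes) had opposite signs. They were the serotonin receptor Htr3a at 0.60 (SE 0.22) and the vesicular GABA transporter Slc32a1 at -0.32 (SE 0.12). Cortical and hippocampal excitatory neuron genes were split, 8 and 8 of 16. Among them the transcription factor Neurod2 read 12.46 to 13.13 (median 12.57) in aSYN/Hsp70 and 12.10 to 12.41 (median 12.29) in wt, without overlap, and differed by 0.37 (SE 0.15, limma adjusted p = 0.314).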

How the data were processed

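RNA from whole brains was measured on 24 arrays, 1 per sample, and groups were taken from the array titles and descriptions. The deposited table gives a linear intensity for each probe set on each array. How the authors made the values from the scans, and the genome build, are not given in the sources used here. A gene table of assembly GRCm38.p6 served for names and gene neighbourhood. Of 45101 probe sets, 34958 carried 1 gene symbol, 932 several and 9211 none here, and only the first were named.

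Intensities were transformed here to log2(intensity + 16), which understates differences of dim probe sets, and quantile normalised. The 64 control probe sets and the 40% with the lowest means (18015) were set aside, which left 27022 to test. Group means were fitted to all 24 arrays together by limma 3.58.1 (lmFit, eBayes) under R 4.3.3, with Benjamini-Hochberg adjustment over the 27022 probe sets and a threshold of 0.05. Single values per array were compared by two-sided exact permutation tests, for which the 924 possible splits set a smallest p of 0.00216. The number of arrays limits the precision. The fit was tested on simulated arrays for aSYN/Hsp70 versus wt over 27022 probe sets, with 100 probe sets changed at each size. It found 29% of those changed by 0.5 log2 units and 62% of those changed by 1. It made 4 false calls, and 0 where no change was put in. The simulated noise was independent between probe sets and equally wide on every array. The real arrays differ in this, so these rates need not hold for them.

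The 49 gene lists and the members were chosen with earlier results of these data known. Of 929 listed genes, 96 had no named probe set. By the naming rule, up to 12 genes per direction among those called were named or, with fewer than 5 called, the 10 with the smallest p, as well as Hspa1a, Hspa1b, up to 4 members per list with the smallest p and members whose arrays do not overlap. Prkcz, B3galt6 and the members beyond this rule, such as Mbp, Mog, Olig1, Foxp1, Arpp21, Rgs9, Gpr6, Penk, Ppp1r1b, Slc17a6, Nefl, Slc6a3, Csf1r and Cx3cr1, were named after their values were seen. Alternatives were no quantile normalisation, offsets of 1 and 256, dim probe sets kept, only the 12 arrays, the replicate number as a block, array weights, a sex covariate, weights with the sex covariate, a trended and robust variance, the mean of a gene's probe sets, each array left out in turn, and the series without the 4 arrays of weight under 0.5. Figures were drawn with matplotlib 3.10.9.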

Additional observations from a re-analysis of the deposited data

Results flagged for a closer look

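In 26 of 272 groups of 6 arrays checked, 1 array lay far from the nearest of the other 5 (by a gap above Dixon's critical value for 6 values). Chance gives about 1 in 20. Of these values 15 belonged to aSYN/Hsp70 replicate 4 and 1 to aSYN/Hsp70 replicate 3.

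Replicate 4 of aSYN/Hsp70 was far below the other 5 arrays of its group, in log2 units, for Hspa1a at 7.86 (others 10.97 to 11.53), Foxp2 at 11.33 (others 11.98 to 12.26), Mal at 13.98 (others 14.42 to 14.65) and Ntng1 at 11.43 (others 12.26 to 12.48). It was also far below them for Fibcd1 at 8.44 (others 10.02 to 10.55), Hspa9 at 13.37 (others 13.69 to 13.85), Ndufa5 at 14.36 (others 14.87 to 15.11), Syt2 at 8.18 (others 10.89 to 11.94) and Gfra2 at 8.89 (others 10.77 to 11.90). In the list scores the same array stood low for oligodendrocyte and myelin genes at -0.70 (others -0.22 to 0.06) and thalamus genes at -0.91 (others -0.38 to -0.09). It was far above the other 5 for Col1a2 at 12.57 (others 10.92 to 11.51), Atg7 at 12.23 (others 11.18 to 11.54), Uchl1 at 16.38 (others 15.91 to 15.93) and Tpi1 at 16.47 (others 16.20 to 16.30).

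Other arrays stood out gene by gene. They were, in aSYN/Hsp70, Hspa1b in aSYN/Hsp70 replicate 2 at 11.19 (others 12.45 to 12.82) and C1ql1 in aSYN/Hsp70 replicate 3 at 10.88 (others 9.71 to 10.14). In wt, arrays far from the rest were Slc4a8 in wt replicate 6 at 7.44 (others 8.59 to 9.24), Hspa1b in wt replicate 4 at 13.66 (others 11.55 to 12.11), Hspa1a in wt replicate 3 at 10.25 (others 10.89 to 11.23) and Fibcd1 in wt replicate 3 at 10.78 (others 10.28 to 10.41), and further Psmd7 in wt replicate 1 at 13.93 (others 13.54 to 13.63), Atp13a2 in wt replicate 6 at 12.82 (others 13.01 to 13.12), Rplp2 in wt replicate 6 at 16.50 (others 16.72 to 16.84), Grm5 in wt replicate 4 at 13.70 (others 13.86 to 13.95) and Fgf12 in wt replicate 6 at 14.19 (others 13.82 to 13.94).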

How the results depend on the processing

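With the number of limma calls at 0 with all 24 arrays, the fit of only the 12 arrays gave 4 calls (those of Gnb1, C1qtnf12 and Prkcz above) and the fit without the 4 arrays that stand apart gave 1, a probe set unnamed here. In fits added after seeing the data, only the female arrays gave 6, and the 12 arrays less aSYN/Hsp70 replicates 3 and 4 gave 3, which were the 2 of Gnb1 and that of C1qtnf12. With 1 array left out the count was 0 to 1, the 1 being Ccdc82 (adjusted p = 0.0397, and up to 0.865 over the alternatives) without wt replicate 4. The count at an unadjusted p under 0.05 was 2297 without the 4 arrays, 1165 with only the male arrays and 2066 with the 12 arrays less those 2, and with 1 array left out it lay between 2360 (without aSYN/Hsp70 replicate 4) and 5459 (without aSYN/Hsp70 replicate 6), against 3922. The replicate number as a block gave 0 calls and a count of 3881 at an unadjusted p under 0.05. Same-numbered arrays correlated between -0.0746 and 0.0718 in their deviations from group means and 0 arrays correlated best with their own number. The labels do not say whether the numbers pair samples, and such correlations need not show a weak pairing.

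Striatal, myelin, thalamus, neurofilament and ion channel medians stayed below 0 in 15 of 15 other settings and in 12 of 12 with 1 array left out. These settings reuse the same arrays. Members lower at an unadjusted p under 0.05 were less stable. Over the settings their number ran from 0 to 10 for striatal, myelin and ion channel genes. It ran from 1 to 10 for thalamus genes and from 1 to 6 for neurofilament and microtubule genes. Of 131 named probe sets under 26 alternatives, 5 changed sign. Slc4a8 passed the filter on dim probe sets in 24 of these and Timp1 in 17. Hspa1a stood at 0.186 (array weights), 0.262 (without the 4 arrays that stand apart), 0.232 (array weights and sex covariate), 0.224 (without aSYN/Hsp70 replicate 4), 0.198 (only female arrays) and 0.257 (only the 12 arrays, less aSYN/Hsp70 replicates 3 and 4), and between -0.51 and 0.224 with 1 array left out. Of Hspa1b, the probe set at -0.23 stood at 0.00221 (without wt replicate 4) and 0.023 (only female arrays), and between -0.36 and 0.00221 with 1 array left out. The Hspa1b probe sets at 0.27 and 0.29 stood at -0.517 and -0.539 with only the male arrays. Sort1, at 0.02, stood at -0.0664 (array weights), -0.0382 (without the 4 arrays that stand apart), -0.0583 (array weights and sex covariate), -0.019 (without wt replicate 1), -0.013 (without aSYN/Hsp70 replicate 4), -0.0377 (only male arrays) and -0.0389 (only the 12 arrays, less aSYN/Hsp70 replicates 3 and 4), and between -0.019 and 0.0517 with 1 array left out. None of these passed any test and the cause was not tested. Array number and dim probe sets limit all of these values.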
